A study of Mus musculus with 6 samples.

Results

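The intercalated disc is the end-to-end junction of heart muscle cells, and 10 of its genes were followed here in hearts with and without the nuclear receptor ERRα, the product of Esrra, a regulator of mitochondrial energy genes with no known natural ligand. The genes were 3 connexins (Gja1, Gja5 and Gjc1), 2 adherens junction genes (Cdh2 and Ctnna3) and 5 desmosome genes (Dsp, Jup, Pkp2, Dsg2 and Dsc2). They were taken by gene symbol, with each probe set required to carry a single symbol, which gave 29 probe sets among 45099 on the array. A probe set is a group of short oligonucleotides on the array that reports 1 transcript region. The brightest probe set stood for its gene, and 9 of the 10 genes were among the 12946 genes bright enough to be tested. Hearts came from 3 wild-type (WT) males and from 3 males labelled ERRα-null (KO), all under basal conditions. Strain C57BL/6J and an age of 2 to 3 months were given for 5 of the mice, and WT 1 had neither entry. The sources used here do not say how the null allele was made. Every heart had an Affymetrix Mouse430_2 array of its own, so the spread used in the tests is between mice. The p-values weigh a gene's own spread with a variance pooled over genes, which had 45.6 prior degrees of freedom. The number of arrays limits their precision.

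A disc joins cells electrically and mechanically. Gap junctions, built from connexins, pass current and small molecules from cell to cell. Adherens junctions anchor the actin of the last sarcomere through N-cadherin and catenins, and desmosomes tie the desmin filaments of neighbouring cells through desmosomal cadherins, plakoglobin, plakophilin and desmoplakin. In the heart these junctions mix in an area composita, and inherited faults of its desmosomal genes are known causes of arrhythmogenic cardiomyopathy. The comparison of KO with WT hearts asked here whether the transcripts of this junction differ when the receptor is missing.

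None of the 9 disc genes tested passed in the comparison of KO with WT hearts. The count was 0 of 9 at an adjusted p under 0.05 in limma, and also 0 of 9 at an unadjusted p under 0.05. Over all 12946 genes tested, 2.97% were called, and 12.5% had an unadjusted p under 0.05. The groups overlapped for each of the 9 genes, while 16.2% of all genes had groups that did not overlap. The log2 differences (KO minus WT, on log2 of signal plus 16) ran from -0.24 for Dsg2 to 0.073 for Gjc1, with standard errors (SE) between 0.118 and 0.180. Read as 95% confidence intervals, the KO to WT ratios of the 9 genes lay between 0.668-fold and 1.34-fold. Larger changes of these probe sets lay outside the intervals of this fit, which holds all 6 hearts. Without KO 1, a fit given below, the intervals reached log2 differences of -0.86 (Dsg2) and 0.57 (Gjc1). Of the 9 genes, 7 had a negative difference (6 with quantile normalization), against 55.0% of all genes tested. Their median was -0.15, against -0.028 over all genes.

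Esrra itself, the check of the labels, gave 368.1, 394.4 and 349.1 in WT 1 to 3. In KO 2 and KO 3 it gave 24 and 18, but in the library labelled KO 1 it gave 180.1, which is 48.6% of the WT mean and goes against that label. The log2 difference was -2.58 (SE 0.283, limma adjusted p = 3.8e-09), and without WT 1 it was -2.59 with an adjusted p of 0.0675. KO stands throughout for the libraries labelled so, and KO 1 is included except where a value without it is given. Markers of heart muscle were abundant in every heart. The summed signal of 10 myocyte genes, among them Myh6, Tnnt2 and Ryr2, ran from 70210 to 78030 in WT and from 68410 to 71240 in KO, and 0 of the 10 passed the test. Arrays differed in overall brightness. The median signal was 16 in WT 1 and 12.4 to 13.7 in the other 5 hearts. In whole-heart RNA, fewer cells of a type and less RNA per cell cannot be told apart.

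The plot of signals by heart shows all 10 genes.

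**Figure D1:**
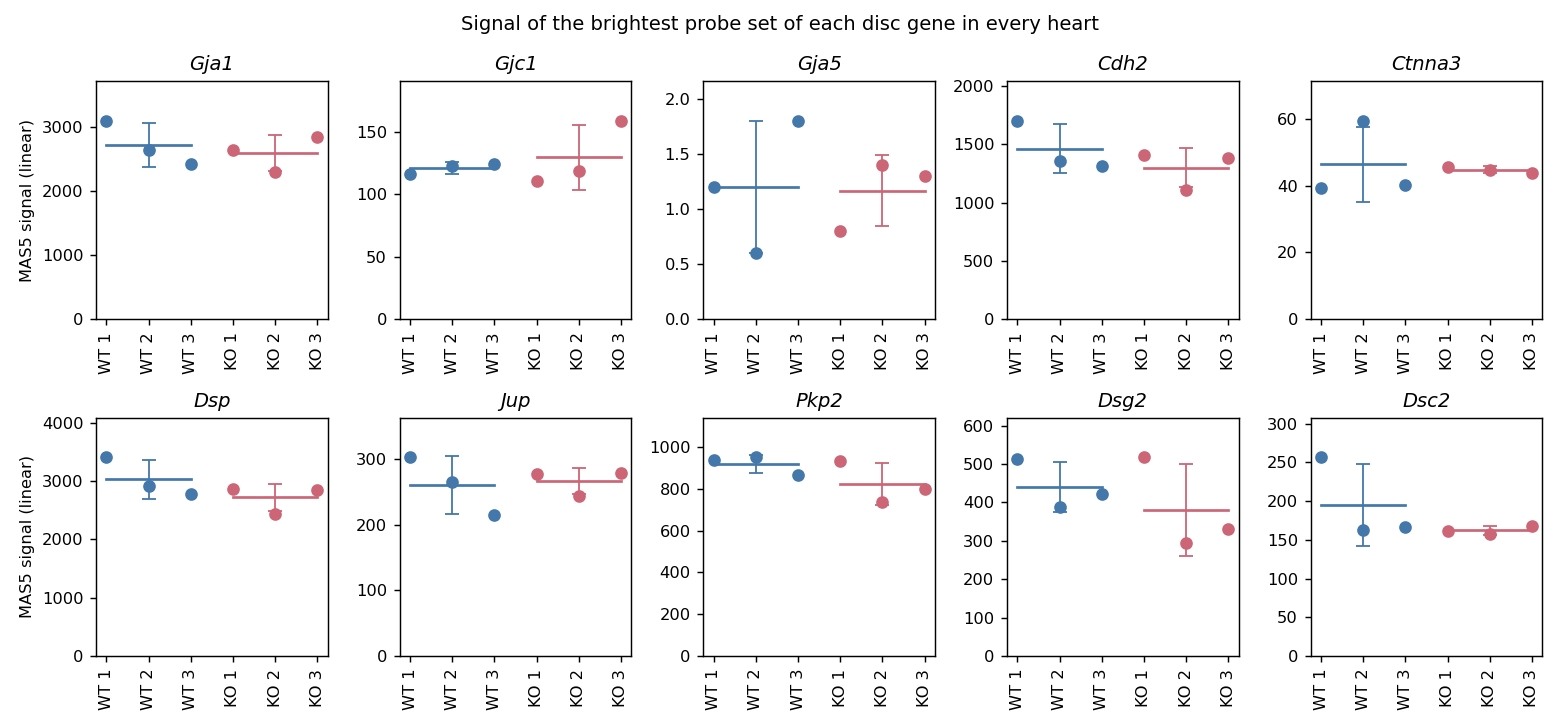
Signal (linear MAS5 scale, vertical axis, starting at 0) of the brightest probe set of each disc gene in WT 1 to 3 (blue) and in the libraries labelled KO 1 to 3 (red), with horizontal lines at the group means and bars of 1 SD (n = 3 each). The groups overlap for each of the 9 genes tested, and Gja5 stays at or below 1.8 in every heart.

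Promoter windows, from 250 bases before to 50 bases after the transcription start, were found in the RefSeq table (GRCm38.p6) for 5 of the 10 genes, Gja1, Gja5, Dsp, Jup and Ctnna3, in 7 windows because Ctnna3 has 3 starts. They were searched on both strands for the ERR response element TNAAGGTCA and for its core AGGTCA, which the longer element contains. The longer element was in 0 of the 7 windows, against 1.28% of all 32851 windows of the same length. The core was in 1 of the 7, against 16.3% of all windows. A window without a match says only that these letters are not in it. The windows of Gja1, the main connexin of working heart muscle, and of Dsp, the plakin of every desmosome, are printed beside the window of Ctnna3 that holds the core. They lie at chr10:56377050-56377349 (plus strand) for Gja1, chr13:38151044-38151343 (plus strand) for Dsp and chr10:63457261-63457560 (plus strand) for Ctnna3. Capitals mark the core, which begins 52 bases before the Ctnna3 start on the same strand.
Gja1: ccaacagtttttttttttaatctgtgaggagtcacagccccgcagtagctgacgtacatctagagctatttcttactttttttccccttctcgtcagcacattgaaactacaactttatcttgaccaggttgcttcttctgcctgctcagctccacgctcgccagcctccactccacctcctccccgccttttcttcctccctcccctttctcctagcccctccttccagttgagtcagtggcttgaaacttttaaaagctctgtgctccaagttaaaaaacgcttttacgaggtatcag
Dsp: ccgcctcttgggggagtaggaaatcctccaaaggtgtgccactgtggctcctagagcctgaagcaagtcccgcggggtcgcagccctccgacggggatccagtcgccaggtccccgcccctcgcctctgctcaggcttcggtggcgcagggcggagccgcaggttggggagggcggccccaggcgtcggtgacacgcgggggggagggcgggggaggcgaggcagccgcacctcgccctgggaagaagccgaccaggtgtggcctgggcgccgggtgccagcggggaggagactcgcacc
Ctnna3: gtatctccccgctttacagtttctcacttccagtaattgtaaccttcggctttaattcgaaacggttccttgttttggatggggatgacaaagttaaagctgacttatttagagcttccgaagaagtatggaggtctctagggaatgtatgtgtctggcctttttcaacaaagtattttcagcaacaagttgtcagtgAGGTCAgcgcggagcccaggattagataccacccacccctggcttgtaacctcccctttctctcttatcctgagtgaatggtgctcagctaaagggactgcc

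Among the connexins, Gja1 encodes connexin 43, the channel protein that couples ventricular myocytes. Its signal was 3101.1, 2643 and 2422.8 in the WT hearts 1 to 3 against 2647.8, 2299.1 and 2847.1 in the KO hearts 1 to 3. The highest heart was WT 1 and the lowest KO 2, and the groups overlapped. The means were 2722 ± 346 in WT and 2598 ± 277 in KO (SD, n = 3 each), or -0.065 as a log2 difference (SE 0.121, limma adjusted p = 0.900, 95% interval 0.807-fold to 1.13-fold). This difference had no fixed sign, since it was 0.0038 with quantile normalization. Gja1 had 6 probe sets, all above the filter on dim signals, of which 3 were negative and 3 positive. Its next brightest probe set gave 2075.2, 1711.4 and 1985.2 in the WT hearts 1 to 3 against 1743.5, 1778.6 and 2496.3 in the KO hearts 1 to 3, with a log2 difference of 0.045 (SE 0.135). The probe sets of connexin 43 thus lay on both sides of 0.

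Gjc1 encodes connexin 45, known from the conduction system and the embryonic heart. It gave 115.9, 122.2 and 124.5 in the WT hearts 1 to 3 against 110.6, 118.9 and 158.7 in the KO hearts 1 to 3. KO 3 stood above the other 5 hearts, while KO 1 stood below all WT hearts. The log2 difference was 0.073 (SE 0.172, limma adjusted p = 0.923), and without KO 3 it was -0.066. The dimmer Gjc1 probe set showed the same heart on top, with 62.7, 89.8 and 73.2 in WT, against 55.2, 62.7 and 153.5 in KO 1 to 3. Of 6 conduction system markers on the array, the summed signal was 312 to 370.3 in WT, 323.9 in KO 1, 406 in KO 2 and 655 in KO 3. Irx3 alone gave 527.8 of the sum in KO 3. Irx3 and Tbx3 were highest in KO 3, while Cntn2, Cpne5 and Shox2 were highest in KO 2. None of the 5 tested passed (0 of 5), and their part in the Gjc1 value was not tested.

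Gja5 encodes connexin 40, the connexin of atrial muscle, the fast conduction system and arterial endothelium. Its only probe set gave 1.2, 0.6 and 1.8 in the WT hearts 1 to 3 against 0.8, 1.4 and 1.3 in the KO hearts 1 to 3. These values were below the filter, a signal of 8.17, and only 2.13% of the probe sets had a lower mean signal, so Gja5 was not tested with the other genes. In the fit of every probe set without a filter its log2 difference was -0.0024 (SE 0.090, limma adjusted p = 0.998), in a fit that called 0.102% of probe sets and 0 of the 29 here. Whether so dim a probe set lies above background was not known, since no detection calls were used here. Summed atrial markers, by contrast, were bright and differed between the groups. Over 9 atrial genes, among them Sln, Myl4, Myl7 and Nppa, the summed signal was 4147, 3262 and 10090 in the WT hearts 1 to 3 against 16900, 15670 and 14140 in the KO hearts 1 to 3. Of the 9, 7 rose, against 1.78% of all genes, with a median log2 difference of 1.60 over the 9. Kcnj3 (-0.020) and Nr2f2 (0.018) did not pass. Of endothelial genes, 0 of 11 passed, Gja4 (connexin 37 of arteries) among them, with summed signals of 1298 to 1800 in WT and 1379 to 1825 in KO.

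Of the adherens junction genes, Cdh2 encodes N-cadherin, the cadherin that holds the disc together. Its signal was 1700.1, 1359.3 and 1317 in the WT hearts 1 to 3 against 1410.4, 1108.3 and 1379.5 in the KO hearts 1 to 3. KO 2 was the lowest heart and WT 1 the highest, and KO 1 and KO 3 lay among the WT hearts. The means were 1459 ± 210 and 1299 ± 166 (SD, n = 3 each), with KO minus WT of -0.16 in log2 (SE 0.137, limma adjusted p = 0.714). The other Cdh2 probe set gave -0.25 (SE 0.157, limma adjusted p = 0.646) with the same order of the extremes. Ctnna3 encodes alpha-T-catenin, which links cadherins to actin and binds plakophilin 2 in the area composita. It gave 39.4, 59.4 and 40.2 in the WT hearts 1 to 3 against 45.7, 44.8 and 43.7 in the KO hearts 1 to 3, so that the KO hearts lay within the WT range. The log2 difference was -0.023 (SE 0.180, limma adjusted p = 0.980), the smallest in size of the 9.

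In the desmosomal plaque, Dsp encodes desmoplakin, which ties the plaque to desmin. It gave 3402.4, 2912.1 and 2768.9 in the WT hearts 1 to 3 against 2870.3, 2441.9 and 2838 in the KO hearts 1 to 3. WT 1 was the highest and KO 2 the lowest, and the groups overlapped. The means were 3028 ± 332 and 2717 ± 239 (SD, n = 3 each), or -0.15 as a log2 difference (SE 0.118, limma adjusted p = 0.679, 95% interval 0.763-fold to 1.06-fold). All 3 Dsp probe sets were negative, at -0.15, -0.16 and -0.15. In the dimmest of them the 3 KO hearts (858.9, 828.8 and 807.9) lay below the 3 WT hearts (1019.2, 892 and 868.5), with a limma adjusted p of 0.807 over every probe set above the filter.

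Jup encodes plakoglobin, the catenin shared by desmosomes and adherens junctions, which can also act in Wnt signalling. Its single probe set gave 302.2, 265 and 214.4 in the WT hearts 1 to 3 against 276.4, 244.2 and 278.7 in the KO hearts 1 to 3. The KO hearts lay within the WT range. The log2 difference was 0.041 (SE 0.166, limma adjusted p = 0.961, 95% interval 0.817-fold to 1.30-fold).

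Pkp2 encodes plakophilin 2, the armadillo protein that clusters desmosomal cadherins. It gave 936.9, 950.8 and 867.7 in the WT hearts 1 to 3 against 936.2, 736.6 and 799.9 in the KO hearts 1 to 3. KO 2 and KO 3 were below all WT hearts and KO 1 was level with them. The means were 918.5 ± 44.5 and 824.2 ± 102 (SD, n = 3 each), or -0.16 as a log2 difference (SE 0.143, limma adjusted p = 0.738). In 2 dimmer Pkp2 probe sets the groups did not overlap. One gave 602.4, 576.4 and 533.8 in the WT hearts 1 to 3 against 505.4, 406.6 and 459.1 in the KO hearts 1 to 3, or -0.31 as a log2 difference (SE 0.153, limma adjusted p = 0.447). The other gave 33.2, 33.4 and 25.2 in the WT hearts 1 to 3 against 21.2, 21.3 and 24 in the KO hearts 1 to 3, or -0.28 as a log2 difference (SE 0.186, limma adjusted p = 0.667). Neither passed. The remaining Pkp2 probe set was below the filter, at 11.8 or less in every heart.

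The desmosomal cadherins are desmoglein 2 (Dsg2) and desmocollin 2 (Dsc2), the isoforms of heart muscle. Dsg2 gave 512.7, 387.7 and 422.1 in the WT hearts 1 to 3 against 517, 293 and 331.1 in the KO hearts 1 to 3. KO 2 and KO 3 lay below every WT heart, while the library labelled KO 1 was the highest of the 6. The means were 440.8 ± 64.6 and 380.4 ± 120 (SD, n = 3 each), with the log2 difference of lowest p among the 9 genes, -0.24 (SE 0.172, limma adjusted p = 0.653, 95% interval 0.668-fold to 1.08-fold). Dsc2 gave 256.5, 162.5 and 166.9 in the WT hearts 1 to 3 against 161.5, 157.3 and 168.6 in the KO hearts 1 to 3. WT 1 stood alone above the other 5 hearts, which lay within 157.3 to 168.6. The log2 difference was -0.22 (SE 0.174, limma adjusted p = 0.701), and without WT 1 it was -0.018.

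Of the 6 Dsg2 probe sets, all above the filter, 5 were negative. In 2 of them the groups did not overlap. The brighter of these gave 306.4, 259.9 and 258.1 in the WT hearts 1 to 3 against 253.6, 178.1 and 208.1 in the KO hearts 1 to 3, or -0.35 as a log2 difference (SE 0.169, limma adjusted p = 0.438). The dimmer gave 122.4, 103.9 and 107.3 in the WT hearts 1 to 3 against 95, 69.8 and 83.1 in the KO hearts 1 to 3, or -0.37 as a log2 difference (SE 0.175, limma adjusted p = 0.420). In both, KO 1 lay nearer to WT than KO 2 and KO 3 did. The probe set of opposite sign was dim, with 14.2, 30.6 and 13.8 in WT, against 28.3, 22.2 and 26.9 in KO.

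Over all 27 disc gene probe sets above the filter, 0 passed among the 27022 probe sets tested together, of which 1.93% were called. An unadjusted p under 0.05 was found for 3 of the 27, 2 of Dsg2 and 1 of Pkp2, against 10.7% of all probe sets above the filter. The KO hearts lay wholly below the WT hearts for 5 of the 27, against 8.09% of all, and wholly above for 0, against 6.27%. These 5 belonged to Dsg2, Pkp2 and Dsp. Probe sets of 1 gene read the same transcript and are not independent of each other. A negative difference was found for 19 of the 27, against 53.3% of all, and for 17 with quantile normalization, against 51% of all. With that normalization the KO hearts lay wholly below the WT hearts for 4 of the 27, of Dsg2, Dsc2, Cdh2 and Pkp2, against 10.6% of all, and 0 passed.

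**Figure D2:**
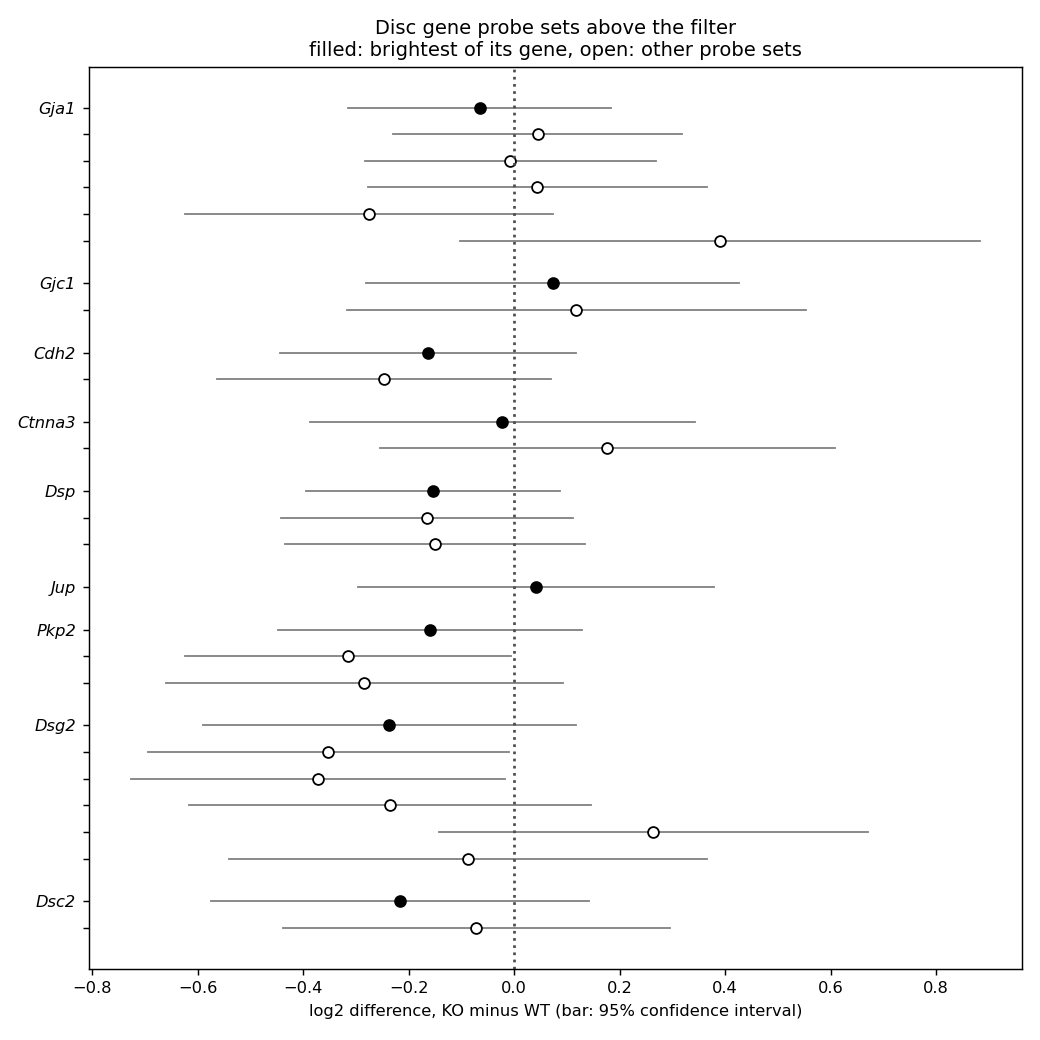
Log2 difference, KO minus WT (horizontal axis), of the 27 disc gene probe sets above the filter, with 95% confidence intervals, grouped by gene and sorted by brightness (filled circles mark the brightest of each gene). Gja1 probe sets lie on both sides of 0, those of Dsp, Pkp2, Cdh2 and Dsc2 lie below it, and 5 of 6 Dsg2 probe sets do.

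Because Esrra in the library labelled KO 1 went against its label, the disc genes were also compared without it. Still 0 of 9 passed, while 3.93% of all genes were called, and 1 of 9 (Dsg2) had an unadjusted p under 0.05, against 12.6% of all. Dsg2 was then at -0.47 (SE 0.197, limma adjusted p = 0.212) and Pkp2 at -0.25 (SE 0.177, limma adjusted p = 0.634). In these 2 of the 9 genes KO 2 and KO 3 lay below the 3 WT hearts, as they did for 16.5% of all genes. Without KO 1, Dsp was at -0.20, Cdh2 at -0.23 and Dsc2 at -0.21, while Gja1 was at -0.081, Jup at 0.015 and Gjc1 at 0.17. The SE in the fit without KO 1 came wholly from the variance pooled over genes. With KO 1 kept and KO 2 left out instead, Dsg2 was at -0.078.

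**Figure D3:**
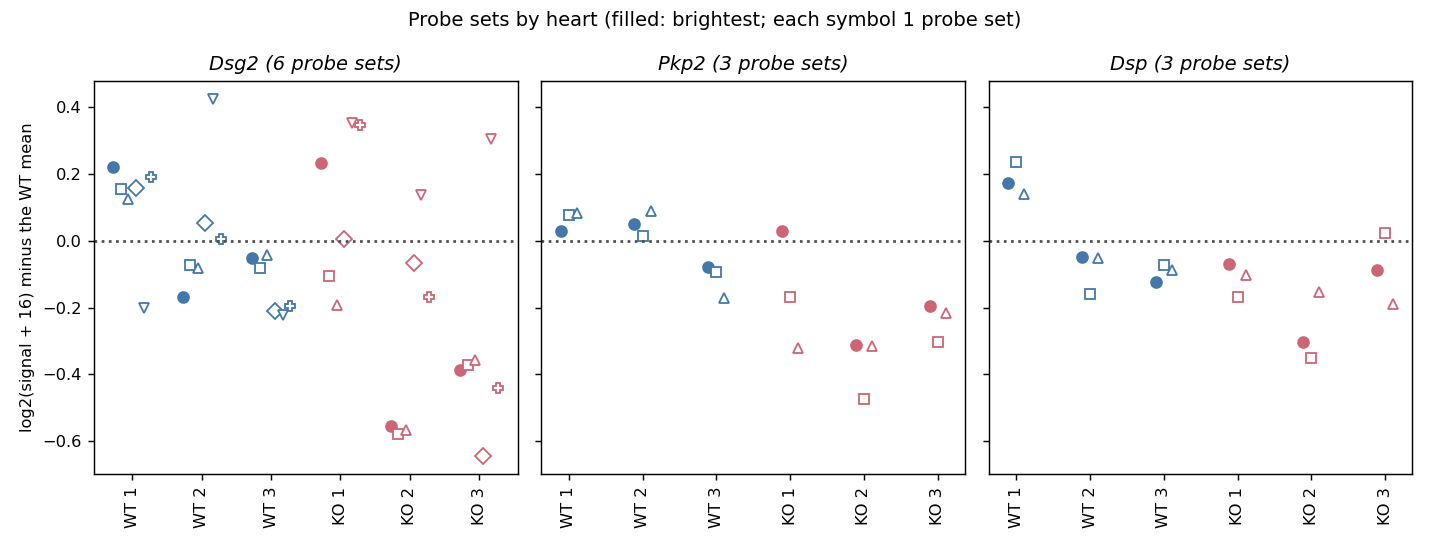
Log2 of signal plus 16 minus the WT mean (vertical axis) for each probe set above the filter of Dsg2, Pkp2 and Dsp in WT 1 to 3 (blue) and in the libraries labelled KO 1 to 3 (red), with 1 symbol for each probe set and the brightest filled. The 3 brightest Dsg2 probe sets are low in KO 2 and KO 3, and the brightest is highest of all hearts in KO 1.

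Levels also differed from heart to heart. Relative to the WT mean, the median of the 9 genes was 0.194, -0.0349 and -0.134 in WT 1 to 3, against -0.0323, -0.258 and -0.0704 in KO 1 to 3 (log2). Over all genes tested it was 0.181, -0.0879 and -0.0874 in WT 1 to 3, against -0.023, -0.0592 and 0.0126 in KO 1 to 3. WT 1 was thus the highest heart for the disc genes and for all genes. KO 2 was the lowest for the disc genes, with 9 of 9 below the WT mean, but not over all genes, where WT 2 and WT 3 were lower. With quantile normalization, which puts the arrays on a common distribution, the median was 0.0116 in WT 1 and -0.170 in KO 2, and 6 of 9 genes were below the WT mean in KO 2. The differences between the groups were then -0.20 for Dsg2 (SE 0.163) and -0.20 for Dsc2 (SE 0.105, limma adjusted p = 0.357), and 0 of 9 passed, with 3.43% of all genes called.

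Other genes of the junction, beta-catenin targets and transcription factors were read from 6 lists. Of the 67 genes tested, 3 rose and 0 fell, against 1.78% and 1.18% of all genes. Their median log2 difference was 0.0060, against -0.028 over all genes. The 3 were Perp, Kcna5 and Pdlim3. Perp, a membrane protein of desmosomes and a p53 target, gave 589.6, 465.1 and 473.6 in the WT hearts 1 to 3 against 593.9, 799.8 and 1105.7 in the KO hearts 1 to 3. The KO hearts lay above all WT hearts, by a wide margin in KO 3 and a narrow one in KO 1. The log2 difference was 0.66 (SE 0.165, limma adjusted p = 0.0133), and without KO 3 it was 0.43 with an adjusted p of 0.381. Without WT 1 the adjusted p was 0.105, and without WT 3 it was 0.0546. It was 0.213 with no filter and 0.138 with no intensity trend. Perp was 1 of 7 other desmosome genes tested. The other 6 did not pass, among them Des, which encodes desmin, at -0.34 (SE 0.138, limma adjusted p = 0.222), Pkp4 at 0.20 and Ppl, periplakin, at 0.20. Each of the 3 risen genes had 1 probe set above the filter.

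Pdlim3 and Kcna5 were the 2 of 23 scaffold and channel partners that rose. Pdlim3, a PDZ and LIM protein that binds alpha-actinin, gave 125.8, 89.2 and 111.5 in the WT hearts 1 to 3 against 198.6, 209.9 and 204.6 in the KO hearts 1 to 3. The KO hearts lay close together and above all WT hearts. Their log2 difference was 0.83 (SE 0.170, limma adjusted p = 0.00138). Kcna5, the potassium channel Kv1.5, which is known in atrial muscle and at the disc, gave 125.7, 106.4 and 95.7 in the WT hearts 1 to 3 against 223.8, 162.3 and 196.4 in the KO hearts 1 to 3, or 0.74 as a log2 difference (SE 0.172, limma adjusted p = 0.00598). Without WT 3 its adjusted p was 0.0514, and with no filter 0.0844. The summed atrial markers given above also differed between the groups. Among the WT hearts, WT 3 had the highest atrial sum and the lowest Kcna5, while among the KO hearts KO 1 had the highest of both. The part of the atrial markers in Kcna5 was not tested. The other 21 did not pass. Tjp1, the scaffold ZO-1 that binds connexin 43, was at 0.0060 (SE 0.156), and Ank3, ankyrin-G, which anchors sodium channels at the disc, was at -0.52 (SE 0.174, limma adjusted p = 0.104).

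The remaining lists had no member past the test. Of 14 other connexin and pannexin genes on the array, 11 were below the filter, all 3 pannexins among them. The 3 tested were connexins, with Gja3 at -0.28 (SE 0.174) and Gja4 at 0.19 (SE 0.176). Of 13 adherens junction genes 0 passed. Ctnnb1, beta-catenin, was at 0.15 (SE 0.120), Vcl, vinculin, at 0.098 (SE 0.145) and Arvcf, a catenin of the p120 family, at -0.53 (SE 0.203, limma adjusted p = 0.179), with Cdh11 at 0.33 (limma adjusted p = 0.445). Of 8 targets of beta-catenin, which plakoglobin can affect, 0 passed, with Ccnd1 at -0.22 and Tcf7l2 at -0.25. Of 13 cardiac transcription factors, some of them known to control connexins, 0 passed. Tbx2, a repressor of chamber genes, was at -0.59 (SE 0.217, limma adjusted p = 0.159) from dim signals and Tbx20 at 0.39 (limma adjusted p = 0.262).

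**Figure D4:**
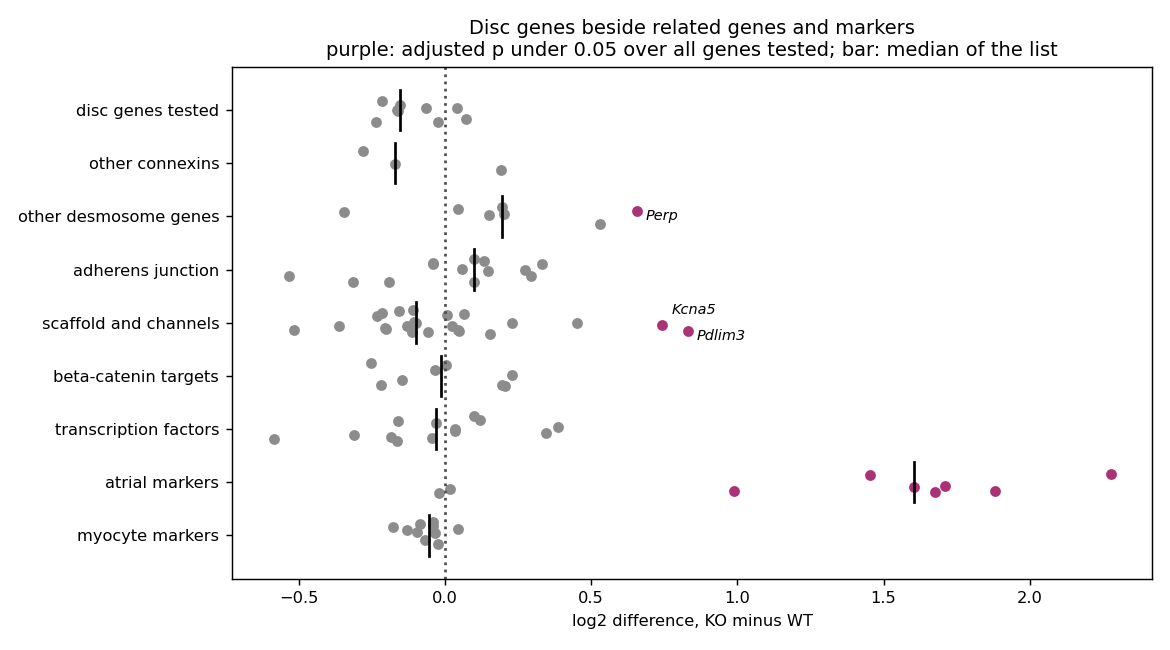
Log2 difference, KO minus WT (horizontal axis), of the 9 disc genes tested, the 6 lists of related genes, and markers of atrial myocytes and of heart muscle in general (1 point per gene; vertical bars are list medians). The disc genes lie between -0.24 and 0.073, and Perp, Kcna5 and Pdlim3 are the related genes past the test.

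Desmosomal genes are also active in epithelium, and the summed signal of mesothelial and other epithelial markers differed between the groups. Over 10 genes it was 257.8 to 308.8 in WT and 476.5 to 577.5 in KO, with Upk3b means of 108.6 and 236.7. Of 9 tested, 2 rose, Upk3b (log2 difference 1.01) and Lrrn4 (0.72), both mesothelial genes, against 1.78% of all genes. The other 7 did not pass, among them Krt8 at 0.15 and Wt1 at -0.090, and the median of the 9 was 0.41. Cdh1, E-cadherin, was below the filter. Summed adipocyte markers were 75.8 to 100.6 in WT and 318.2, 1821 and 1547 in KO 1 to 3. Car3 alone gave 235, 1331.5 and 1147.7 of these KO sums. Summed fibroblast markers were 5852 to 7065 in WT and 7794 to 9395 in KO. Adipocyte markers rose in 4 of 4 tested and fibroblast markers in 1 of 8 (Col3a1), against 1.78% of all genes. The median log2 difference was 1.76 over the adipocyte genes and 0.42 over the fibroblast genes, against -0.028 over all genes. For every fibroblast gene the KO hearts lay above the WT hearts, while 16.2% of all genes had groups that did not overlap. The part of these markers in the disc gene values was not tested.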

How the data were processed

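The authors deposited linear intensity values, 1 per probe set and array, computed with MAS5 per the submitters' processing notes. The sources used here give neither its scaling target nor detection calls. The labels title WT 1 as mouse 1, while a comment in its array header gives another number, and the title was used. Values were analysed as log2(signal + 16) without further scaling. On this scale the change of dim genes is understated. Of 45099 probe sets, 62 are controls, 34958 (a few controls among them) carry 1 gene symbol in the platform table, 932 several and 9160 that are not controls none, and probe sets with several or none were not named. By gene identifier, 0 symbols changed in the GRCm38.p6 gene table. Probe sets whose mean reached the 40th percentile (log2 4.59, a signal of 8.17) were kept, with the brightest per gene. Groups were compared over all 12946 genes by lmFit and eBayes, the variance trended on intensity (limma 3.58.1, R 4.3.3, two-sided, Benjamini-Hochberg, threshold 0.05). The pooled variance had 45.6 prior degrees of freedom. The fit was also run on simulated data with the same noise for every probe set, which does not test it on the spread of these arrays. Probe sets of the members were also fitted among all those above the filter, and among all without it.

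The genes and lists were chosen with earlier results of these data known. The text names the 10 members and Esrra, and, of each of 6 related lists (other connexins and pannexins, other desmosome genes, adherens junction, scaffold and channel partners, beta-catenin targets, transcription factors), the genes past the threshold or the 2 of lowest p, with further members named after their values were seen. There were 7 marker lists (heart muscle, atrium, conduction system, endothelium, epithelium, adipocytes, fibroblasts); Irx3, Tbx3, Gja4 and Cdh1 stand in a marker list and a related list. Alternatives covered pseudocounts, scalings, filters, rules for probe sets, variance models, array weights, the mouse number as a block, and each heart left out in turn. Mice are numbered within each genotype, with no statement that equal numbers pair.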

Additional observations from a re-analysis of the deposited data

How the results depend on the processing

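In all 20 alternatives 0 disc genes passed, by gene or, in the 15 that apply, by probe set, with the lowest adjusted p of any disc gene between 0.212 (Dsg2, without KO 1) and 0.912 (without KO 2). Dsg2, Pkp2, Dsp, Cdh2 and Dsc2 stayed negative in all 20, but their size moved by over 1.5 times when 1 heart was left out. Dsg2 ran from -0.47 (without KO 1) to -0.078 (without KO 2) and Pkp2 from -0.25 to -0.083 (likewise), Dsp from -0.22 (without WT 3) to -0.067 (without WT 1), Cdh2 from -0.23 to -0.050 (likewise) and Dsc2 from -0.32 (without WT 2) to -0.018 (without WT 1). Gja1 turned to 0.0038 with quantile normalization, 0.022 as the mean of probe sets and 0.045 without shared-probe sets, and Ctnna3 to 0.077 as the mean of probe sets. Without shared-probe sets Pkp2 was at -0.31 (limma adjusted p = 0.374). Jup, whose only probe set is of that kind, was not tested in that setting. Leaving out 1 heart gave -0.14 to 0.032 for Gja1, -0.10 to 0.12 for Ctnna3, -0.066 to 0.17 for Gjc1 and -0.085 to 0.15 for Jup. Of the related genes, 3 passed in the reported fit, 1 with no filter, and 1 to 5 when 1 heart was left out (5 without KO 1, with Ank3 lower and Cxadr higher). The 384 genes called in all became 66 with no filter, 171 with no intensity trend and 610 with array weights, and 127 (without WT 1) to 509 (without KO 1) when 1 heart was left out. Esrra did not pass with robust eBayes (-2.58, adjusted p = 0.307) or without WT 1 (-2.59, adjusted p = 0.0675), and it ran from -3.39 to -2.12 when 1 heart was left out. The cause of these shifts was not tested. Correlations between same-numbered hearts were 0.027, -0.016 and 0.029, and those between unlike numbers ran from -0.079 to 0.058. With 3 hearts per group, these values cannot show whether the hearts were paired. With the replicate block 0 disc genes and 412 genes in all were called. Gja5 and other dim probe sets are limited by signal over background, which could not be judged without detection calls.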
